A study of Mus musculus with 9 samples.

Results

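The genes described here encode C-type lectin, Siglec, Fc gamma, CD300 and paired immunoglobulin-like receptors, most of them surface receptors of myeloid cells. They were chosen by symbol: every gene whose symbol starts with Clec, Siglec, Fcgr, Cd300 or Pilr, together with Fcer1g, Pirb and Lilrb4 (listed as Lilrb4a), except Clec10a and Clec11a. This gave 55 genes of the 22180 measured: 29 C-type lectins, 9 CD300 genes, 6 Fc receptor genes, 6 Siglecs and 5 paired immunoglobulin-like receptor genes. Their transcripts were measured in periprostatic fat, the fat pad next to the prostate. Each male C57BL/6J mouse gave 1 Affymetrix Mouse Gene 2.0 ST array. The high fat group (5 mice) ate a diet with 60 percent of energy as fat and the low fat group (4 mice) a diet with 10 percent, starting at an age of 6 weeks and lasting 12 weeks, with the fat collected at 18 weeks. The labels name no transgene or other treatment, and each sample title names a single mouse. Values are log2 expression, adipocyte marker genes were high on every array, and precision is limited by how few arrays there are. P-values measure the spread between these mice.

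Receptors of these families often come in pairs with opposite signals. Activating receptors carry an immunoreceptor tyrosine-based activation motif (ITAM) or borrow it from a short adaptor, Fcer1g or Tyrobp (DAP12), and signal through the kinase Syk. Inhibitory receptors carry an inhibitory motif (ITIM) in their own tail and recruit the phosphatases encoded by Ptpn6, Ptpn11 and Inpp5d. In adipose tissue most of them are known from macrophages, whose numbers rise in obesity. Here 20 of the 55 genes were classed as activating (Fcer1g among them, as the adaptor), 13 as inhibitory, and 22 as other, which are ligands, adhesion, transport or secreted proteins and receptors with no class assigned here.

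Genes that rose in high fat diet were found in both the activating and the inhibitory class, and neither class rose as a whole. By limma, 24 of the 55 genes were higher (43.6%) and 6 lower (10.9%) at an adjusted p below 0.05, whereas over all 22180 genes 12.4% were higher and 9.13% lower, 21.5% in either direction. Of the activating genes 13 of 20 rose and 2 fell, and of the inhibitory genes 6 of 13 rose and 1 fell. The other class had 5 of 22 genes higher and 3 lower. Median log2 differences (high fat minus low fat) were 0.62 for activating, 0.23 for inhibitory and 0.0016 for other genes, against -0.001 over all genes. The order of the activating and inhibitory medians depends on which genes are counted and is not read here. Among genes with a group mean at or above the median of all genes, a choice that favours genes high in 1 diet, it turns, with 0.97 for 12 activating and 1.12 for 9 inhibitory genes. Without low fat mouse 1 the inhibitory median over all 13 genes was 0.39 and the activating median over all 20 was 0.64, so the order held there. Every array of one diet lay above every array of the other in 21 genes that were higher and 4 that were lower in high fat, against backgrounds of 11.6% and 9.15% of all genes. Among all genes the split of calls moved with scaling, to 2320 higher and 2771 lower after a repeated quantile normalization and to 2227 and 3056 after median centring, while 22 and 23 of the 55 genes were then higher and 7 lower in each.

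**Figure D1:**
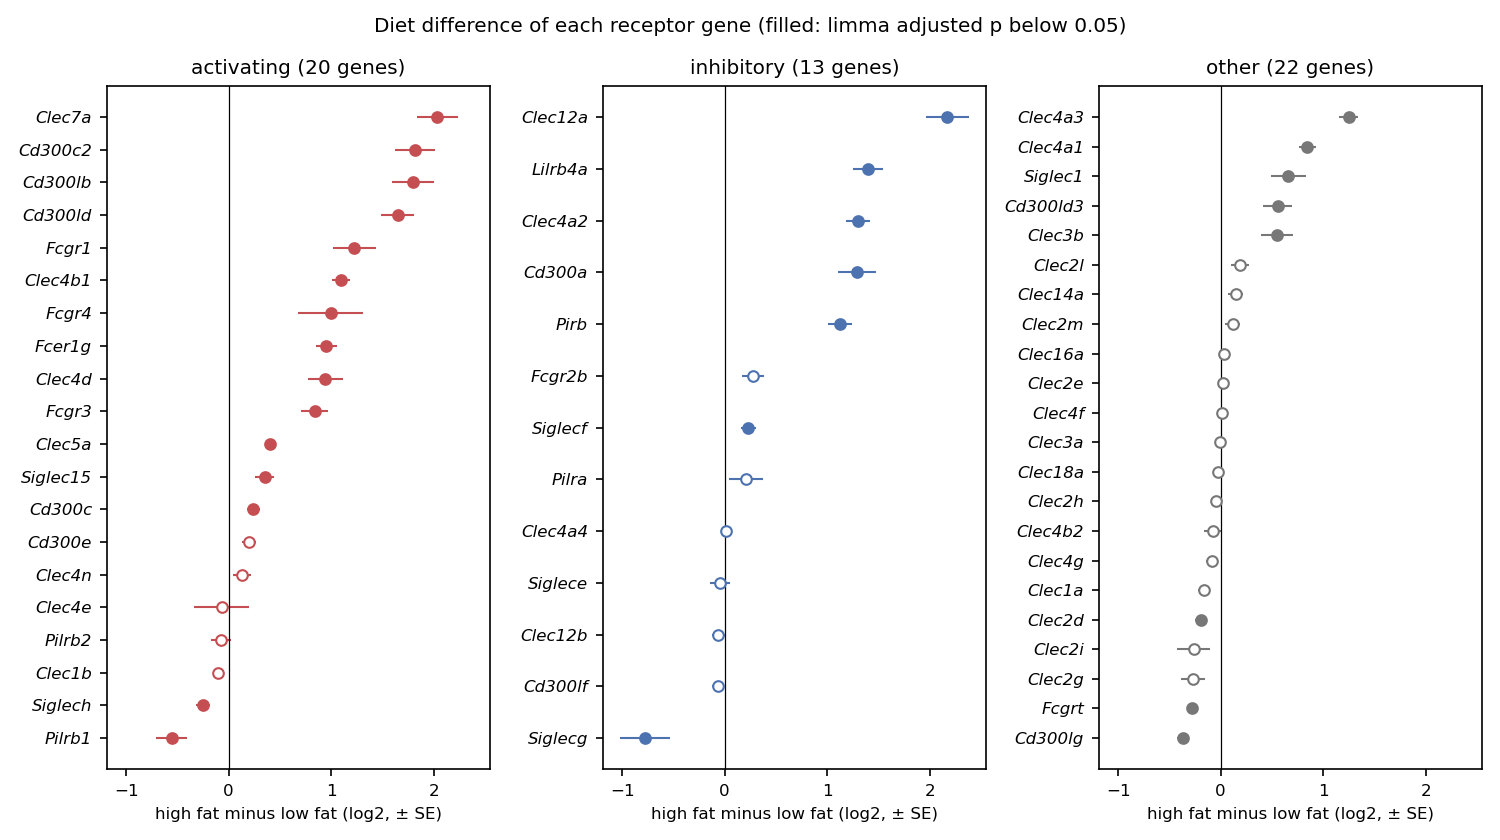
Difference between diets (high fat minus low fat, log2, horizontal axis) with its standard error for each of the 55 genes, in panels by signalling class; filled points passed limma at an adjusted p below 0.05. Clec7a among the activating genes and Clec12a among the inhibitory ones lie farthest to the right, at 2.04 and 2.17, and Pilrb1 and Siglecg are the lowest of their panels.

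The largest increases were those of an inhibitory and an activating lectin receptor whose genes lie in the same cluster. Clec12a encodes MICL, an ITIM-bearing receptor for uric acid crystals (probe set 17463509). It was at 10.69, 10.88, 11.09, 10.08 and 10.10 in high fat mice 1 to 5 and at 8.58, 8.35, 8.45 and 8.20 in low fat mice 1 to 4. Clec7a encodes Dectin-1, the beta-glucan receptor, which has an ITAM-like motif of its own (probe set 17471541). Its values were 10.36, 10.75, 10.91, 10.03 and 9.93 in high fat mice 1 to 5 and 8.64, 8.31, 8.27 and 8.22 in low fat mice 1 to 4. In both genes every high fat mouse lay above every low fat mouse, and high fat mice 4 and 5 were below mice 1 to 3. The fold was 4.51 for Clec12a (2.17 ± 0.21 SE, limma adjusted p = 0.000127) and 4.10 for Clec7a (2.04 ± 0.20 SE, adjusted p = 0.0001445).

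The change of this pair within a mouse did not pass. Clec7a minus Clec12a was -0.17 ± 0.11 (SD, n = 5) in high fat and -0.03 ± 0.10 (SD, n = 4) in low fat mice. Its change of -0.14 had an exact permutation p of 0.0952 (two-sided, adjusted p = 0.0952 over 8 pairs), and it passed without low fat mouse 3 (-0.19, adjusted p = 0.0476). The genes between them in the RefSeq order did not pass the limma test. Clec12b differed by -0.06, Clec1b, the platelet receptor gene for podoplanin, by -0.10, and Clec1a by -0.16 (adjusted p = 0.0814). Clec1a passed as lower with quantile normalization repeated (-0.21), with arrays centred on their medians (-0.20) and without high fat mouse 1 (-0.19). Clec9a, also in this cluster, was covered only by a probe that names several genes and was not analysed here.

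The stretches in front of the annotated start sites of these genes are shown because Clec7a and Clec12a rose while their neighbour Clec1b did not pass, with Cd300ld as a further gene that rose. Each is the 250 bases before the start site in RefSeq annotation of GRCm38.p6, written 5′ to 3′ along the gene's strand, with matches to the PU.1 core GAGGAA on either strand in capitals.
Clec7a, chr6:129472780-129473029, minus strand: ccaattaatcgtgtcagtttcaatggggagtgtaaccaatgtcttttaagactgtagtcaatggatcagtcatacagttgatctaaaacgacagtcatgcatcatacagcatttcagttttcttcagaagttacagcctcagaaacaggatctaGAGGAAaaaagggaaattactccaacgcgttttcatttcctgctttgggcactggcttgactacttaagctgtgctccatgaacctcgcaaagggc
Clec12a, chr6:129349994-129350243, plus strand: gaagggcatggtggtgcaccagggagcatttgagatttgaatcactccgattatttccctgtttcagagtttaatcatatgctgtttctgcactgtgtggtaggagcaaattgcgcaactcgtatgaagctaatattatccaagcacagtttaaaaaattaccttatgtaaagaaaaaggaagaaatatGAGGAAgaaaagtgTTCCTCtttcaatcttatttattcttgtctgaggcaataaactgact
Clec1b, chr6:129397047-129397296, plus strand: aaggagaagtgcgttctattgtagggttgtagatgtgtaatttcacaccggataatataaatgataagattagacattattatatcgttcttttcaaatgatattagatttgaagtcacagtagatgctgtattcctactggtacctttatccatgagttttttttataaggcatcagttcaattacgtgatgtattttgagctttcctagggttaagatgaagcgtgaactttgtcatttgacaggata
Cd300ld, chr11:114989887-114990136, minus strand: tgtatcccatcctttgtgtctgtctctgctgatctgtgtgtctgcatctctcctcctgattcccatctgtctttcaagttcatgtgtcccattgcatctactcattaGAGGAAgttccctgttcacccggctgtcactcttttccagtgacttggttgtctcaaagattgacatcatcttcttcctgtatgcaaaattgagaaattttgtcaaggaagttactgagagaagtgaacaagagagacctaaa
PU.1 is a transcription factor of the myeloid lineage, and its core contains the GGAA shared by the ETS family, so other ETS factors' motifs overlap it. The window of Clec7a held 1 match (at -96 from the start site), that of Clec12a 2 (at -61 and -47), that of Cd300ld 1 (at -143), and that of Clec1b had no match. These windows are examples and do not stand for the whole set. A match was also in 10 of 26 genes that did not rise, Clec4e and Pilra among them, and in only 16 of 20 that rose.

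Windows were found for 46 of the 55 genes, and 26 of these (56.5%) held the PU.1 core, against 25.9% of the 27025 genes with a window. Matches to TGANTCA (AP-1) were in 5 of the 46 genes, against 7.82% of all genes. TTGCNNAA (C/EBP) was in 10 of 46 against 10.8%, and CACGTG (E-box) in 1 of 46 against 6.86%. Split into the 20 genes that rose and the 26 that did not, the counts were 16 and 10 for PU.1, 1 and 4 for AP-1, 3 and 7 for C/EBP and 0 and 1 for the E-box. These are letter matches on both strands and show no binding.

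CD300 receptors, several of which bind lipids of cell membranes, held 4 of the 12 genes that rose by at least 1 on the log2 scale, a size reached by 1.28% of all genes. Cd300lb, an activating receptor that pairs with DAP12, was at 8.97, 9.11, 9.29, 8.42 and 8.43 in high fat mice 1 to 5 and at 7.37, 6.74, 7.19 and 6.86 in low fat mice 1 to 4. Cd300ld, which pairs with Fcer1g, was at 10.59, 10.71, 10.83, 10.17 and 10.23 in high fat and 9.09, 8.63, 9.10 and 8.62 in low fat mice. Cd300c2 was at 7.67, 8.01, 8.11, 7.22 and 7.23 against 6.09, 5.78, 5.79 and 5.66. The diets did not overlap in any of these activating genes, whose folds were 3.49 for Cd300lb, 3.13 for Cd300ld and 3.53 for Cd300c2 (limma adjusted p = 0.000274, 0.000157 and 0.000207). The inhibitory Cd300a, a receptor for phosphatidylserine and phosphatidylethanolamine, was at 8.77, 8.92, 9.17, 8.35 and 8.43 in high fat and 7.82, 7.18, 7.25 and 7.50 in low fat mice. It was 2.45-fold higher (1.29 ± 0.18 SE, adjusted p = 0.000888), again with no overlap.

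Not every CD300 gene moved in this way. Cd300ld3, which is of the other class, was 1.47-fold higher (limma adjusted p = 0.0166). Its call was lost without high fat mice 1 and 2 together (0.57) and without high fat mouse 1 and low fat mouse 2 (0.58). The activating Cd300c was 1.18-fold higher (adjusted p = 0.0219). The call for Cd300c was lost without high fat mouse 2 or 3 or low fat mouse 3 or 4, where its difference lay between 0.20 and 0.23. Cd300e, also activating, was at 6.51 ± 0.08 (SD, n = 5) against 6.31 ± 0.14 (SD, n = 4) and did not pass (adjusted p = 0.0709), although it did without low fat mouse 3 (0.24). The inhibitory Cd300lf was at 5.87 ± 0.02 (SD, n = 5) against 5.93 ± 0.13 (SD, n = 4), with both means below the median of all genes in both diets (adjusted p = 0.497). The difference Cd300lb minus Cd300lf within a mouse was 2.98 ± 0.40 (SD, n = 5) in high fat and 1.11 ± 0.23 (SD, n = 4) in low fat mice. Its change of 1.87 had the smallest exact permutation p that the assignments of 9 mice allow, 0.0159 (two-sided, adjusted p = 0.0317), and it rests on a dim gene. Cd300ld minus Cd300a changed by 0.36, from 1.42 ± 0.32 (SD, n = 4) in low fat to 1.78 ± 0.07 (SD, n = 5) in high fat mice, which did not pass (exact p = 0.0952, adjusted p = 0.0952) except without low fat mouse 3 (0.50, adjusted p = 0.0476). CD300 genes are similar in sequence and their probes can share signal, so which member changed is less certain here.

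**Figure D2:**
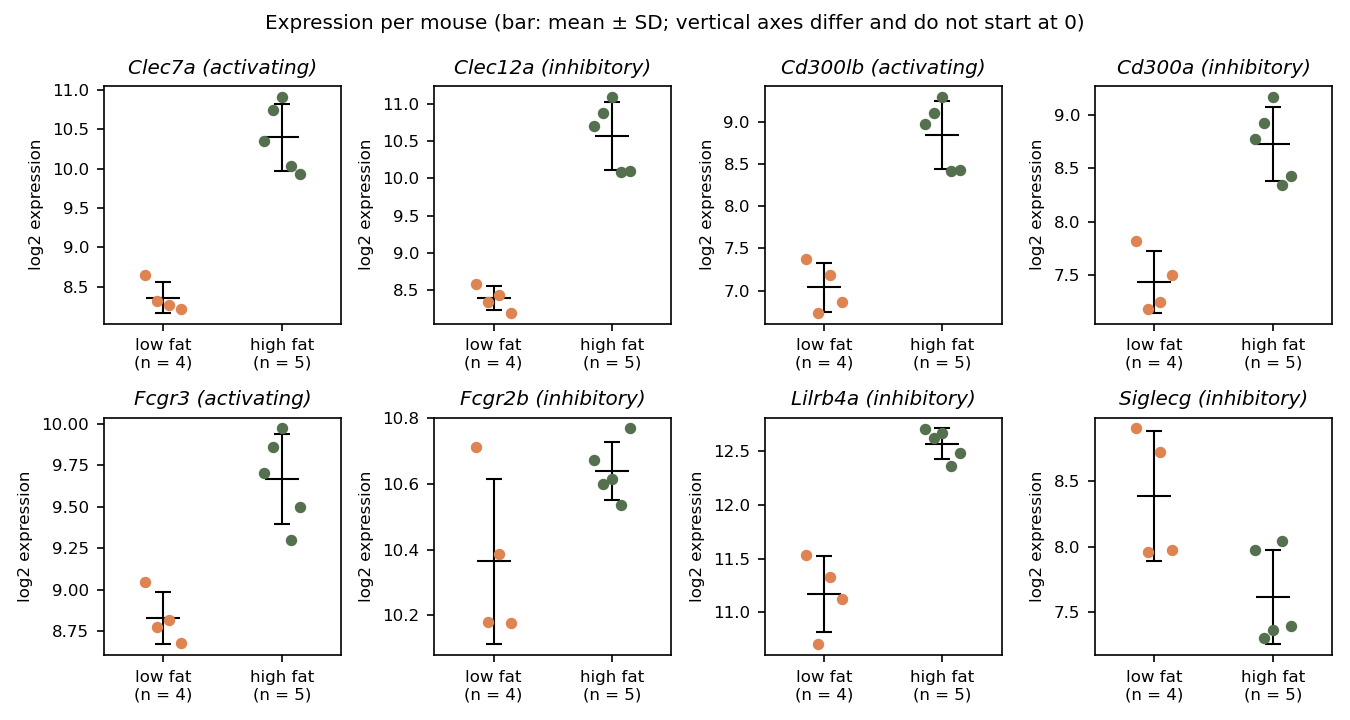
Log2 expression of 8 receptor genes in each of 4 low fat and 5 high fat mice (points), with mean and SD as bars; each panel has its own vertical axis, which does not start at 0. The diets are apart for Clec7a, Clec12a, Cd300lb, Cd300a, Fcgr3 and Lilrb4a and overlap for Fcgr2b and Siglecg.

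Among Fc gamma receptors, which bind immunoglobulin G, the activating genes rose while the inhibitory gene did not pass. Fcgr1, the high affinity receptor gene, was at 8.97, 9.17, 9.38, 8.33 and 9.01 in high fat mice 1 to 5 and at 7.93, 8.11, 7.36 and 7.58 in low fat mice 1 to 4. Fcgr3 was at 9.71, 9.86, 9.97, 9.30 and 9.50 against 9.05, 8.77, 8.82 and 8.68. Fcgr4 was at 8.63, 8.43, 8.64, 7.61 and 7.87 against 7.75, 7.85, 6.60 and 6.77. The diets did not overlap in Fcgr1 and Fcgr3, whereas in Fcgr4 low fat mice 1 and 2 lay above high fat mouse 4. Folds were 2.34 for Fcgr1 (adjusted p = 0.00254), 1.79 for Fcgr3 (adjusted p = 0.00161) and 1.99 for Fcgr4 (adjusted p = 0.0482). Fcgr4 no longer passed without high fat mouse 1, 2, 3 or 5 or low fat mouse 3 or 4, with differences of 0.78 to 1.09 in those fits, and with all rows of the table tested its adjusted p was 0.0682.

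Fcgr2b, the ITIM-bearing Fc gamma receptor gene, was at 10.67, 10.60, 10.62, 10.54 and 10.77 in high fat mice 1 to 5 and at 10.71, 10.18, 10.39 and 10.18 in low fat mice 1 to 4. Low fat mouse 1 lay within the high fat range and the other low fat mice below it. The difference was 0.28 ± 0.11 (SE, limma adjusted p = 0.0969), and without low fat mouse 1 it was 0.39 and passed (adjusted p = 0.00473). Fcgr3 minus Fcgr2b within a mouse was -0.97 ± 0.28 (SD, n = 5) in high fat and -1.54 ± 0.11 (SD, n = 4) in low fat mice. This change of 0.56 had an exact permutation p of 0.0159 (two-sided, adjusted p = 0.0317), so the pair changed unequally, by 1.48-fold. Fcgr1 minus Fcgr2b changed by 0.95, with an exact p of 0.0317 (adjusted p = 0.0508). Fcgr4 minus Fcgr2b changed by 0.72, with an exact p of 0.0794 (adjusted p = 0.0952). Fcgr1 and Fcgr4 passed against Fcgr2b without low fat mouse 2 (1.13 and 0.98, adjusted p = 0.0476 each), and Fcgr1 also without high fat mouse 4 (1.09, adjusted p = 0.0457).

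The adaptor gene Fcer1g, which encodes the common Fc receptor gamma chain, was at 12.39, 12.50, 12.76, 12.26 and 12.39 in high fat mice 1 to 5 and at 11.65, 11.48, 11.60 and 11.30 in low fat mice 1 to 4. It was 1.94-fold higher with no overlap (0.95 ± 0.10 SE, adjusted p = 0.000222). Fcgrt, which encodes the neonatal Fc receptor that transports and recycles immunoglobulin G and gives no ITAM signal, went the other way. It was at 11.66, 11.81, 11.74, 11.70 and 11.59 in high fat and 11.95, 11.96, 12.08 and 11.92 in low fat mice. All high fat values lay below all low fat values, a 1.21-fold decrease (adjusted p = 0.00493).

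**Figure D3:**
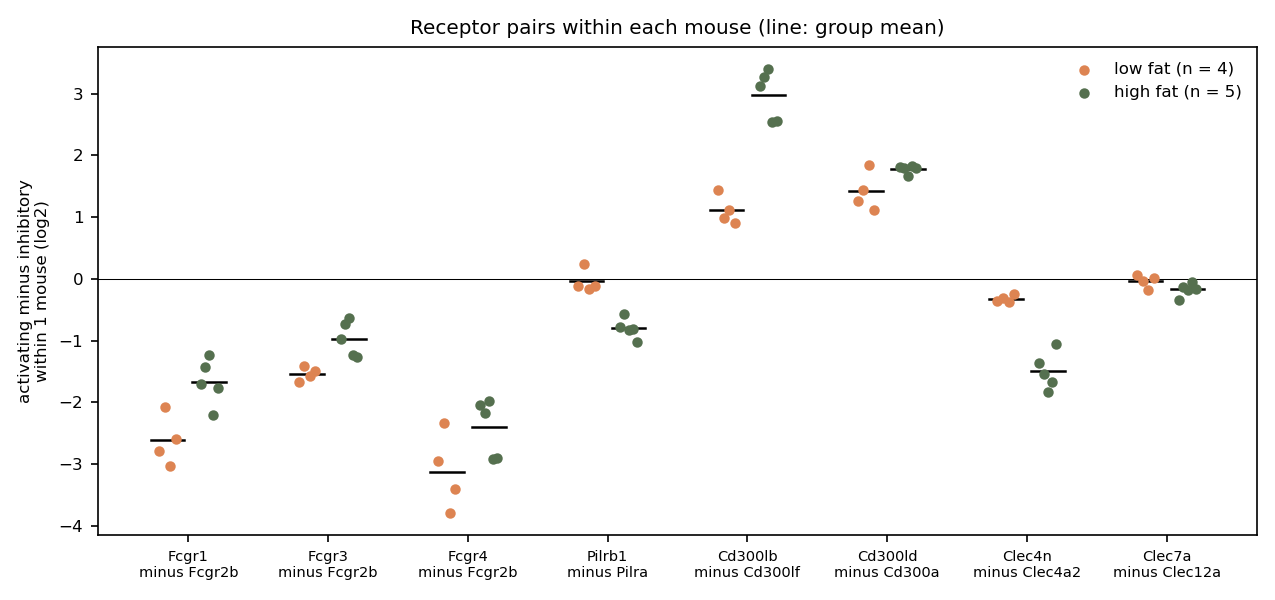
Difference between an activating and an inhibitory receptor gene within each mouse (log2, vertical axis) for 8 pairs, with low fat mice (4 points) beside high fat mice (5 points) and the group means as lines. The diets are apart for Fcgr3 minus Fcgr2b, Pilrb1 minus Pilra, Cd300lb minus Cd300lf and Clec4n minus Clec4a2, the last with high fat at -1.49 and low fat at -0.32.

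The paired immunoglobulin-like receptors gave the largest increases of ITIM-bearing genes after Clec12a together with Clec4a2 and Cd300a. Lilrb4a, which encodes the inhibitory receptor gp49B, was at 12.71, 12.62, 12.68, 12.36 and 12.48 in high fat mice 1 to 5 and at 11.54, 10.70, 11.32 and 11.13 in low fat mice 1 to 4. Pirb, an inhibitory receptor gene for class I MHC, was at 9.02, 9.19, 9.22, 8.80 and 8.95 against 8.18, 7.65, 8.02 and 7.80. Neither gene overlapped between diets, and the folds were 2.64 for Lilrb4a (adjusted p = 0.000207) and 2.18 for Pirb (adjusted p = 0.000192). Both have close relatives (Lilr4b and the Pira genes) whose transcripts can share probe signal. Of the activating Pilr genes, Pilrb1 fell and Pilrb2 did not pass. Pilrb1, which pairs with DAP12, was at 7.56, 7.45, 7.15, 7.55 and 7.20 in high fat and 8.41, 7.90, 7.74 and 7.70 in low fat mice, 1.47-fold lower (adjusted p = 0.0255). Its call was lost without high fat mouse 3 or 5 or low fat mouse 2 (-0.50, -0.51 and -0.57).

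Pilra, the inhibitory partner, was at 8.35, 8.02, 7.98, 8.36 and 8.22 in high fat and 8.53, 7.67, 7.90 and 7.81 in low fat mice. These ranges overlapped and the difference of 0.21 ± 0.16 (SE) did not pass (adjusted p = 0.43), although it did without low fat mouse 1 (0.39, adjusted p = 0.0289). Pilrb1 minus Pilra fell from -0.04 ± 0.19 (SD, n = 4) in low fat to -0.80 ± 0.16 (SD, n = 5) in high fat mice (exact permutation p = 0.0159, two-sided, adjusted p = 0.0317). Pilrb2 was at 5.99 ± 0.15 (SD, n = 5) against 6.07 ± 0.19 (SD, n = 4) and did not pass (adjusted p = 0.638).

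In the Dectin-2 cluster of lectin receptors, genes that rose were interspersed with genes that did not pass. In RefSeq gene order Clec4a1 and Clec4a3 rose, Clec4a4 did not pass, Clec4b1 and Clec4a2 rose, Clec4b2 and Clec4n did not pass, Clec4d rose and Clec4e did not pass. Clec4a2, the gene of the ITIM-bearing receptor DCIR, was at 7.74, 7.86, 8.06, 7.60 and 7.45 in high fat mice 1 to 5 and at 6.57, 6.40, 6.52 and 6.27 in low fat mice 1 to 4. Clec4b1, an activating partner of Fcer1g, was at 6.68, 6.48, 6.82, 6.50 and 6.42 against 5.58, 5.43, 5.58 and 5.33. Both were apart between diets, 2.46-fold higher for Clec4a2 (adjusted p = 9.27e-05) and 2.14-fold for Clec4b1 (adjusted p = 6.44e-05). The DCIR relatives Clec4a3 and Clec4a1, of the other class, were 2.38-fold and 1.80-fold higher with no overlap (adjusted p = 4.6e-05 and 0.0001445).

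The Dectin-2 receptor itself and its close relatives for microbial glycolipids, all activating partners of Fcer1g, gave mixed results. Clec4d was at 7.86, 7.58, 7.85, 7.27 and 7.55 in high fat and 7.15, 6.30, 6.70 and 6.55 in low fat mice, 1.92-fold higher with no overlap (adjusted p = 0.0034). Clec4e, the gene of Mincle, was at 7.63, 6.64, 6.39, 6.98 and 6.94 against 7.69, 6.65, 6.88 and 6.72. Clec4n, the Dectin-2 gene, was at 6.37, 6.32, 6.22, 5.94 and 6.39 against 6.20, 6.10, 6.15 and 6.02. The diets overlapped in Clec4e, where mouse 1 of each diet was highest and high fat mice 2 and 3 lay below every low fat mouse (difference -0.07 ± 0.27 SE, adjusted p = 0.899). Clec4n did not pass either (0.13 ± 0.09 SE, adjusted p = 0.365), except without high fat mouse 4 (0.21, adjusted p = 0.0342), and lay below the median of all genes in both diets. Clec4n minus Clec4a2 within a mouse fell from -0.32 ± 0.05 (SD, n = 4) in low fat to -1.49 ± 0.30 (SD, n = 5) in high fat mice (exact permutation p = 0.0159, two-sided, adjusted p = 0.0317). Clec4a4, an ITIM-bearing gene, and Clec12b were at 4.91 ± 0.06 and 5.18 ± 0.08 in high fat (SD, n = 5) and 4.90 ± 0.08 and 5.24 ± 0.13 in low fat mice (SD, n = 4), and neither passed (adjusted p = 0.893 and 0.576).

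**Figure D4:**
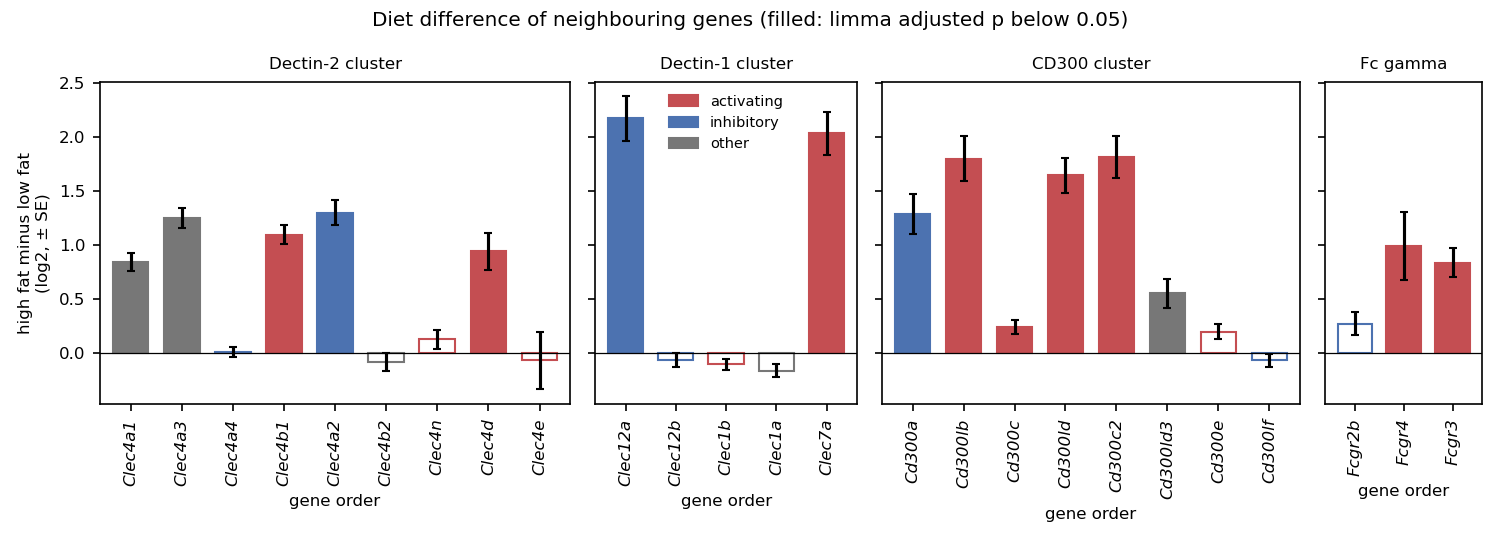
Difference between diets (log2, bars from 0 with standard errors) for neighbouring receptor genes in RefSeq gene order, coloured by class; filled bars passed limma at an adjusted p below 0.05, and genes of the clusters that are not among the 55 are left out. Of the measured genes 5 of 9 rose in the Dectin-2 cluster, 2 of 5 in the Dectin-1 cluster, 6 of 8 in the CD300 cluster and 2 of 3 in the Fc gamma cluster. Over all genes 12.4% rose.

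Of the 8 pairs of activating and inhibitory genes, 4 passed, and they did not lean one way. Fcgr3 with Fcgr2b and Cd300lb with Cd300lf moved towards the activating gene, while Pilrb1 with Pilra and Clec4n with Clec4a2 moved towards the inhibitory gene. On each side a pair rests on a dim gene, Cd300lf and Clec4n, both below the median of all genes in both diets. The balance of directions depends on which pairs were listed and is not read as a balance of the receptors. The pairs were listed with earlier results of these data known, and their p-values do not account for that choice. The 3 Fc gamma pairs share Fcgr2b and are not independent. All 4 passed in 3 of the 9 fits without 1 mouse (without high fat mouse 4 or low fat mouse 2 or 3) and none of them in the other 6. Over all 9 such fits the changes lay between 0.48 and 0.64 for Fcgr3, 1.76 and 1.98 for Cd300lb, -0.82 and -0.67 for Pilrb1 and -1.28 and -1.09 for Clec4n. With 8 mice the smallest possible exact permutation p is 0.0286 or 0.0357. These 4 pairs had that p in all 9 fits, because their diets stayed apart. After adjustment over 8 pairs, 4 pairs alone at that p cannot pass, and their highest adjusted p was 0.0714. They passed only where 5 or 6 pairs passed together, so these losses say nothing about the stability of the 4. A ratio within an array shows that 2 genes changed unequally, not that either stayed the same. The mean log2 value over the activating genes was 7.83 ± 0.15 (SD, n = 5) in high fat and 7.15 ± 0.14 (SD, n = 4) in low fat mice. Over the inhibitory genes it was 8.04 ± 0.10 and 7.498 ± 0.18. Their difference within a mouse ranged from -0.33 to -0.14 in high fat and from -0.41 to -0.20 in low fat mice, ranges that overlapped.

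Siglecs, which bind sialic acids, moved by smaller amounts and in both directions. Siglec1, the macrophage adhesion receptor sialoadhesin, was at 8.67, 8.92, 9.14, 8.30 and 8.84 in high fat mice 1 to 5 and at 8.06, 8.52, 7.96 and 7.92 in low fat mice 1 to 4. It was 1.58-fold higher (adjusted p = 0.0208), with low fat mouse 2 above high fat mouse 4, and the call was lost without high fat mouse 2 or low fat mouse 1, 3 or 4 (0.60 to 0.64). Siglec15, an activating Siglec known from osteoclasts, was at 7.51, 7.63, 7.93, 7.48 and 7.45 against 7.15, 7.29, 7.34 and 7.21. It was 1.28-fold higher with no overlap (adjusted p = 0.0253), a call lost without high fat mouse 2 or low fat mouse 1 or 4 (0.32 to 0.34) and with quantile normalization repeated (0.31).

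Siglecg, an inhibitory Siglec of B cells, was at 7.97, 7.30, 7.36, 8.04 and 7.39 in high fat mice 1 to 5 and at 8.91, 7.96, 8.73 and 7.97 in low fat mice 1 to 4. It was 1.72-fold lower (-0.78 ± 0.24 SE, adjusted p = 0.0455), with high fat mouse 4 above low fat mice 2 and 4 and high fat mouse 1 between them. The fall no longer passed without high fat mouse 2, 3 or 5 or low fat mouse 1 or 3 (-0.72 to -0.61), nor with all rows tested (adjusted p = 0.0646). Of 5 measured B cell marker genes 0 passed limma, and 3 (Ms4a1, Cd79a and Cd79b) were lower at an unadjusted p below 0.05. The log2 of the summed level of these markers ranged from 10.1 to 11.2 in high fat and from 10.8 to 12.2 in low fat mice. It was highest in low fat mice 1 and 3 and, among high fat mice, in mice 1 and 4. The part of B cell content in the Siglecg result was not tested.

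The other Siglec genes differed little between diets. Siglech, an activating Siglec of plasmacytoid dendritic cells, was at 6.64 ± 0.06 (SD, n = 5) against 6.88 ± 0.15 (SD, n = 4), 1.19-fold lower (adjusted p = 0.0276). Its call was lost without high fat mouse 1, 3 or 4 or low fat mouse 1, 3 or 4 (-0.25 to -0.19). Of 6 plasmacytoid marker genes 0 passed limma and 1 (Ly6d) had an unadjusted p below 0.05. The log2 of their summed level ranged from 11.1 to 11.3 in high fat and from 11.2 to 11.5 in low fat mice. Siglecf, an inhibitory Siglec of eosinophils and some macrophages, was at 6.22 ± 0.08 (SD, n = 5) against 5.99 ± 0.15 (SD, n = 4), 1.17-fold higher (adjusted p = 0.0458). That call was lost with quantile normalization repeated (0.21), with arrays centred on their medians (0.19) and in 7 of 9 fits without 1 mouse (0.17 to 0.26, passing only without low fat mouse 1 or 4). Siglece, also inhibitory, was at 7.28 ± 0.20 against 7.32 ± 0.07 and did not pass (adjusted p = 0.797).

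The remaining genes of the activating class were dim. Clec5a, which encodes the DAP12 partner MDL-1, was at 6.25, 6.26, 6.21, 6.22 and 6.32 in high fat and 5.75, 5.95, 5.86 and 5.85 in low fat mice, 1.32-fold higher with no overlap (adjusted p = 0.000301). Clec1b was at 5.27 ± 0.04 (SD, n = 5) against 5.37 ± 0.10 (SD, n = 4) and did not pass (adjusted p = 0.215). Both group means lay below 6.96, the median of the mean values of all genes, in 22 of the 55 genes, Clec5a, Clec4b1, Cd300c, Cd300e, Siglecf and Siglech among them. No detection calls were used, so whether such genes lay above background was not determined, and their folds hold for the values as deposited.

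In the other class 3 genes fell, Cd300lg, Clec2d and Fcgrt. Cd300lg, the gene of the capillary endothelial receptor nepmucin, was at 11.07, 10.94, 11.01, 11.11 and 10.87 in high fat mice 1 to 5 and at 11.28, 11.34, 11.46 and 11.37 in low fat mice 1 to 4. It was 1.29-fold lower with no overlap (adjusted p = 0.0017). Endothelial marker genes rose in 1 of 8 and fell in 2 of 8. The log2 of their summed level ranged from 13.4 to 13.6 in high fat and from 13.4 to 13.7 in low fat mice. Clec2d, a ligand gene for the NK cell receptor NKR-P1, was at 11.35 ± 0.05 (SD, n = 5) against 11.54 ± 0.11 (SD, n = 4), 1.14-fold lower (adjusted p = 0.029), a call lost without high fat mouse 1, 2, 3 or 5 or low fat mouse 3 or 4 (-0.20 to -0.14). Clec3b, which encodes the secreted plasminogen-binding lectin tetranectin, was at 8.67, 9.17, 8.96, 8.79 and 9.27 in high fat and 8.53, 8.62, 8.54 and 7.997 in low fat mice. It was 1.46-fold higher with no overlap (adjusted p = 0.0303), and the call was lost without high fat mouse 2, 3 or 5 or low fat mouse 4 (0.41 to 0.55). The other 14 genes of this class did not pass, with differences from -0.27 for Clec2g to 0.19 for Clec2l. Clec2g passed without low fat mouse 2 (-0.38, adjusted p = 0.0245).

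Genes that carry the signals of these receptors rose on the activating and the inhibitory side. Of 16 measured adaptor and activating signalling genes, 11 rose and 0 fell by limma (0 lower at an unadjusted p below 0.05 as well). Tyrobp, the DAP12 gene, was at 11.96, 12.16, 12.25, 11.62 and 11.81 in high fat and 10.67, 10.45, 10.54 and 10.33 in low fat mice, 2.75-fold higher (adjusted p = 7.44e-05). Lat2 was 3.02-fold higher, the adaptor gene Blnk 2.87-fold, Pik3ap1 2.81-fold, the kinase gene Prkcd 2.06-fold, Vav1 1.68-fold and Btk 1.54-fold. The kinase gene Syk was 1.47-fold higher (adjusted p = 0.0321), Card9 1.38-fold, Lcp2 1.37-fold and Bcl10 1.19-fold. Fgr (0.39), Plcg2 (0.32) and Pik3cd (0.32) reached an unadjusted p below 0.05 only, and Hcst and Malt1 did not. Of 8 inhibitory phosphatase and adaptor genes 5 rose and 0 fell by limma (0 lower at an unadjusted p below 0.05): Inpp5d, which encodes SHIP1, 1.73-fold, Ptpn6, which encodes SHP-1, 1.501-fold, Dok1 1.42-fold, Dok2 1.36-fold and Csk 1.25-fold. Ptpn11, the gene of the broadly expressed SHP-2, was at 10.71 ± 0.08 (SD, n = 5) and 10.70 ± 0.07 (SD, n = 4).

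Macrophage genes rose as well. Of 12 macrophage marker genes 10 rose and 1 fell, with Cd68 at 1.87, Adgre1 at 1.17 and Csf1r at 0.83 (high fat minus low fat, log2). Mertk fell (-0.14, limma adjusted p = 0.0313) and Aif1 did not pass (0.34, adjusted p = 0.0968). The log2 of the summed level of the 12 genes ranged from 14.8 to 15.2 in high fat and from 14.0 to 14.4 in low fat mice. More cells of a type and more RNA per cell cannot be told apart in bulk tissue. Among the 24 receptor genes that rose, high fat mouse 3 was the highest high fat mouse in 18 and high fat mouse 4 the lowest in 16. In 14 of them high fat mice 1 to 3 all lay above mice 4 and 5, an order whose share over all genes is not given here. Among the same 24 genes low fat mouse 1 was the highest low fat mouse in 13 and low fat mouse 4 the lowest in 13. The macrophage sum was likewise higher in high fat mice 1 to 3 than in mice 4 and 5. So were the sums of mast cell, T and NK cell and type 1 dendritic cell genes. The part of macrophage or other cell content in these results was not tested.

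**Figure D5:**
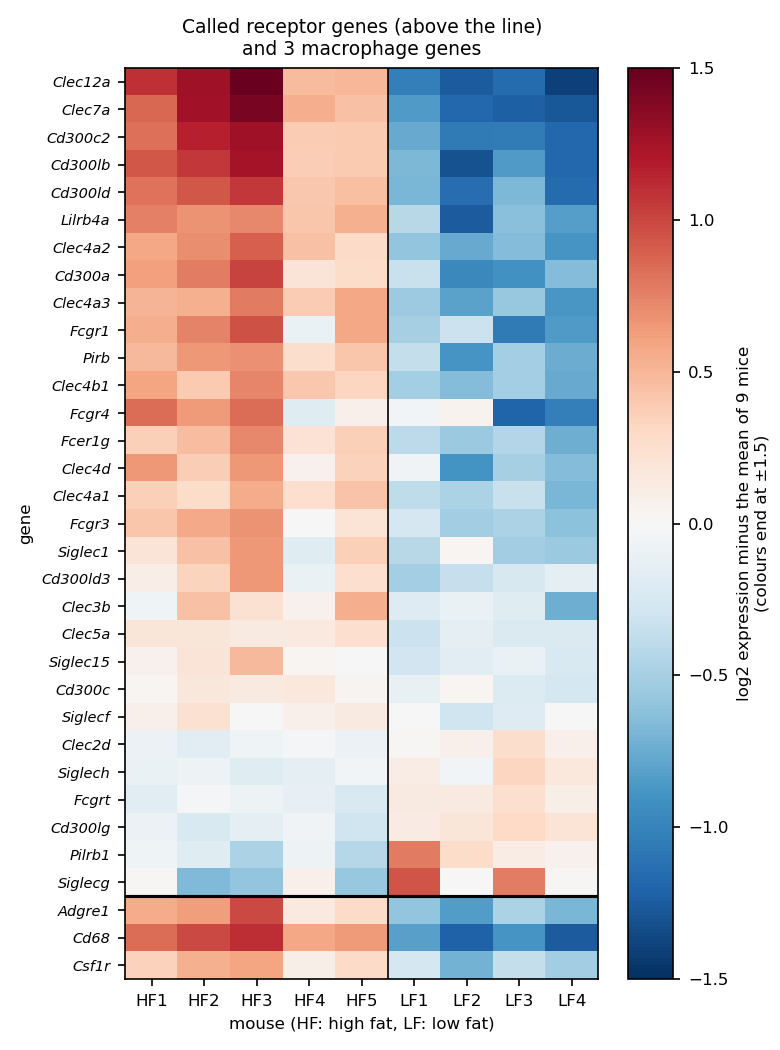
Log2 expression minus the mean of the 9 mice (colour, ending at ±1.5) for the 30 receptor genes that passed limma, ordered by difference, and below the line Adgre1, Cd68 and Csf1r; columns are the 5 high fat and 4 low fat mice. In Clec12a at the top and in Cd68 high fat mice 1 to 3 have the highest values, and Siglecg at the bottom is highest in low fat mice 1 and 3.

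Markers of the tissue and of other cells gave the following background. Adipocyte genes were high on every array, and 6 of 7 fell. The log2 of their summed level was 15.2 to 15.3 in high fat and 15.5 to 15.6 in low fat mice. Summed levels (as log2) of T and NK cell genes (1 of 8 fell) and eosinophil genes (1 of 4 fell) overlapped between diets. So did those of mast cell genes (0 of 8 passed limma, 0 at an unadjusted p below 0.05). Platelet genes (1 of 4 rose) and mesothelial genes (0 of 5 passed, 0 unadjusted) overlapped as well. The summed level of neutrophil genes (1 of 9 rose, 2 fell) ranged from 9.87 to 10.1 in high fat and 10.4 to 10.7 in low fat mice. Of the list, Mmp9 fell (difference -1.70, limma adjusted p = 8.24e-05), whereas the mean log2 value of the list overlapped between diets, at 6.23 to 6.45 and 6.33 to 6.42, and S100a8 rose (1.03). Summed levels of type 1 dendritic cell genes ranged from 10.2 to 10.6 in high fat and 9.49 to 9.78 in low fat mice. Of these genes 3 of 6 rose: Batf3 (0.24), Irf8 and Cadm1, the last of which macrophages also express, as they do Irf8. Xcr1, Flt3 and Itgae did not pass, and Itgae was lower in every high fat mouse than in any low fat mouse (-0.30, limma adjusted p = 0.0682). Prostate and seminal vesicle genes (0 of 7 passed, 0 unadjusted) lay between 8.03 and 8.38 in both diets. Skeletal muscle genes were raised in high fat mouse 1 (12.2, with its diet mates at 9.76 to 9.99) and smooth muscle genes in low fat mouse 2 (13.5, with its diet mates at 11.9 to 12.0). Skeletal muscle genes were also raised, by less, in low fat mouse 4 (10.98, with its diet mates at 9.95 to 10.25). An alternative added once the data had been seen left out high fat mouse 1 and low fat mouse 2 but kept low fat mouse 4. In it 20 of the 55 genes were higher and 5 lower, against 2017 and 1524 of all genes.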

How the data were processed

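Values are log2 expression per probe set, deposited by the authors in 1 table of 33793 rows for 9 arrays. RMA, limma and R 3.5.0 are named in the submitters' processing notes, whose text does not say which step each did here. Joint or separate normalization, scan batches and annotation version: not given in the sources used here. Of the rows, 23521 name 1 gene, 1814 several and 8458 are not listed in the probe table; per gene the probe with the highest mean was kept, which left 22180 genes. Each of the 55 genes has a single probe with 1 symbol, and 4 family probes with several symbols were left out. Related genes can share probe signal.

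Diet was fitted with limma 3.58.1 (lmFit, eBayes, no covariate) in R 4.3.3 over all genes, with Benjamini-Hochberg adjustment over all of them and a threshold of 0.05. Differences are high fat minus low fat with the moderated SE. A summed level of a marker list is the log2 of the sum of its genes' unlogged levels, so the brightest genes weigh most. Pairs were tested with a two-sided exact permutation test over all assignments of the mice, adjusted over 8 pairs. Members, classes, lists and pairs were chosen with earlier results of these data known. Named are all genes that passed, all of the activating and inhibitory classes, and others with a log2 difference of at least 0.5 in size. Signalling genes at an unadjusted p under 0.05 and defining markers are named too. Ms4a1, Cd79a, Cd79b, Ly6d, Mmp9, S100a8, Irf8, Cadm1, Batf3, Xcr1, Flt3, Itgae, Mertk and Aif1 were named after their values were seen. So were Hcst, Malt1, Ptpn11 and a few genes of the other class that did not pass. The fit was tested on simulated data. Promoter windows came from RefSeq (GRCm38.p6), matched by symbol. The alternatives were other normalizations, a filter on dim genes, the mean of probes, other variance models, array weights, a block for mouse number, all rows and leaving out mice.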

Additional observations from a re-analysis of the deposited data

Results flagged for a closer look

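Clec3b in low fat mouse 4 had a value of 7.997, and mice 1 to 3 of that diet lay between 8.53 and 8.62, a gap of 0.85 of the group's range. This was the only group of 110 (55 genes in 2 diets) with a mouse so far from the others, and chance flags about 1 in 20 groups.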

How the results depend on the processing

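Of the 30 genes that passed, 19 passed in each alternative that tested them, 17 of them higher and 2 lower (Fcgrt and Cd300lg). The count of genes that were higher ranged from 17 to 24 over all alternatives. The count that were lower, 6 in all mice, was 3 with the mouse number as a block, 2 without high fat mice 1 and 2, and 2 to 6 without 1 mouse (2 without high fat mouse 3, 3 without high fat mouse 5 or low fat mouse 3). Activating genes that were lower numbered 1 with dim genes left out, 1 with the block, 0 without high fat mice 1 and 2, 1 without high fat mouse 1 and low fat mouse 2, and 0 to 2 without 1 mouse. Inhibitory genes that were lower numbered 0 with the block, with all rows tested and without high fat mice 1 and 2, and 0 to 1 without 1 mouse. Other genes that were higher numbered 2 without high fat mice 1 and 2 and 3 to 5 without 1 mouse. Without high fat mice 1 and 2, 1716 of all genes were higher, and with arrays centred on their medians 3056 were lower. Without 1 mouse the pair changes ranged from 0.48 to 0.64 (Fcgr3 minus Fcgr2b), -0.82 to -0.67 (Pilrb1 minus Pilra), 1.76 to 1.98 (Cd300lb minus Cd300lf), -1.28 to -1.09 (Clec4n minus Clec4a2), 0.82 to 1.13 (Fcgr1 minus Fcgr2b), 0.50 to 0.98 (Fcgr4 minus Fcgr2b), 0.26 to 0.50 (Cd300ld minus Cd300a) and -0.19 to -0.10 (Clec7a minus Clec12a). Without high fat mice 1 and 2 the pair test cannot pass, so only values were compared. Fewer mice or more rows tested are part of these settings; other causes were not tested. The mouse numbers are shared labels only: deviations of same-numbered mice correlated at 0.05 to 0.13 across genes, and with the block 4 of the 30 calls were lost (Clec2d, Siglecf, Siglecg and Siglech). The mean of probes leaves these genes' values as they are, since each has 1 probe. The median difference of the other class, 0.0016 in all mice, changed sign with quantile normalization repeated (-0.0201), median centring (-0.0425), array weights (-0.0131) and the block (-0.0127), and ranged from -0.0139 to 0.0160 without 1 mouse.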
